A study of Mus musculus with 6 samples.

Results

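The genes described here are 9 carriers that move amino acids or short peptides across membranes in mouse dendritic cells. They were picked by symbol among the 23398 genes of the deposited table, with earlier results of these data known but by no threshold on a measured value, and all 9 were found once each. They are the heavy chain gene Slc3a2, its light chain partners Slc7a5, Slc7a7 and Slc7a8, the carriers Slc43a2, Slc1a4, Slc1a5 and Slc38a2, and the lysosomal peptide carrier Slc15a3. Slc7a2 and Slc7a11 were left out of the choice; they are given for comparison, and Slc7a11 also enters the sum of light chains that is set against Slc3a2. The cells were grown from mouse bone marrow in medium with serum, and were treated with Ca(OH)2 (calcium hydroxide) nanoparticles or with vehicle for 12 hours, with 3 libraries in each group. Strain, age, sex, particle dose and the growth factors of the culture are not given in the sources used here. The labels do not say whether the libraries came from separate cultures or animals, so the p-values measure the spread between these libraries, which may be technical.

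Cells take up amino acids through carriers that differ in their substrates and in what drives them. Slc3a2 encodes the heavy chain of CD98, a membrane glycoprotein that binds a light chain of the Slc7 family and brings it to the cell surface; the light chain does the transport. Large neutral amino acids such as leucine are exchanged by these pairs, are sensed at the lysosome by the kinase complex mTORC1, and support protein synthesis in activated immune cells. Slc15a3 sits on endosomes and lysosomes and carries histidine and short peptides, bacterial wall fragments among them, into the cytosol.

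The sequences just before the transcription start are shown for Slc7a8, which rose, for Slc43a2, which fell, and for Slc1a4, 1 of the 2 members with a match to the C/EBP-ATF element, so that promoters with and without the motifs can be read side by side. The table of promoters from RefSeq (build GRCm38.p6) held 6 of the 9 members, with 11 starts. Slc7a5, Slc1a5 and Slc15a3 had no entry. Each stretch lies before the first listed start, on the strand of the gene and outside the gene as annotated, with 190 bases for Slc7a8 and 250 for Slc43a2, and for Slc1a4 it runs on to the end of the match. Capitals mark matches to the motifs searched.
Slc7a8, chr14:54781947-54782136, minus strand: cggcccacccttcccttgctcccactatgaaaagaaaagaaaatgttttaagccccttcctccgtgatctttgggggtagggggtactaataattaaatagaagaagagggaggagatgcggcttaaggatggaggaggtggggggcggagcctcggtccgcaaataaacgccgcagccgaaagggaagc
Slc43a2, chr11:75531444-75531693, plus strand: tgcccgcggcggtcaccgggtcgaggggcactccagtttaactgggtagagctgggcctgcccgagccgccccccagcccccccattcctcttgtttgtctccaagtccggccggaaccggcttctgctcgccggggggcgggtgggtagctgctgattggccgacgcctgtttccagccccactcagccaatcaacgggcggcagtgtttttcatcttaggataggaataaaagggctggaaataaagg
Slc1a4, chr11:20332710-20332963, minus strand: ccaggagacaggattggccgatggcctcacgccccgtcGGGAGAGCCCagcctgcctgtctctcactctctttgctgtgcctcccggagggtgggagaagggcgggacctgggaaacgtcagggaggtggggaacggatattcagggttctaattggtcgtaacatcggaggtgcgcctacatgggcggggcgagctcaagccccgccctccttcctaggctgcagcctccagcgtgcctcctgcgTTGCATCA

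Of the 4 motifs searched on both strands of the 300 bases around each start, the C/EBP-ATF element TGATGNAA lay in 3.97% of all 32851 promoters, the interferon element core (GAAA, a pair of any bases, GAAA) in 3.44%, the E-box CACGTG in 7.15% and the kappaB-like motif (GGGA, 4 of any base, CC) in 20.7%. Matches were allowed to overlap. Among the members, the C/EBP-ATF element and the kappaB-like motif were each found at Slc1a4 and at starts of Slc7a7. The listed starts of Slc3a2, Slc7a8, Slc43a2 and Slc38a2 held no match to these letters in this window. In Slc1a4 the element reads TTGCATCA, its first base lies at position -4 from the start, and GGGAGAGCCC begins at -212.

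Levels are in FPKM (fragments by length of transcript and size of library), a scale per length on which levels of different genes can be set side by side. The length is that of all annotated exons of a gene together, so comparisons between genes depend on that annotation. Read totals recovered from the values were 17287254 to 21981854 per library. The members rested on 68 to 94 reads per library for Slc1a4, the least abundant, and on 10916 to 41283 for Slc15a3, the most abundant, so counting error was at most 12.1% of a value. Nanoparticle library 1 stood apart. The correlation of log2(FPKM + 1) over 10682 tested genes, not independent of each other, was 0.942 and 0.928 between it and nanoparticle libraries 2 and 3, against 0.990 between those and 0.993 to 0.994 between vehicle libraries. Values without it are therefore given beside the results on the 9 members and the counts of each pathway list and of the macrophage, dendritic cell and neutrophil markers. Markers of the labelled cell type were present in part: Itgax, the gene of CD11c, was at 449 ± 7.16 FPKM in vehicle and 340 ± 80.6 with nanoparticles, and the invariant chain gene Cd74 was at 4116 ± 190 and 4111 ± 1613 (SD, n = 3 each), while the receptor gene Flt3 was near 0 in all libraries (at most 0.0793 FPKM).

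Markers of other cells that such cultures could hold were summed in each library. The 10 macrophage markers summed to 1149 to 1278 FPKM in vehicle and to 1460 to 1795 with nanoparticles. By the test described below (limma adjusted p under 0.05), 3 were up and 4 down (4 and 5 without nanoparticle library 1). Over all tested genes, 17% were called higher and 16.2% lower, and 64.8% were called in either direction without nanoparticle library 1. The 12 dendritic cell markers summed to 5421 to 5832 and 3201 to 6987 FPKM, most of it Cd74, with 2 up and 4 down (4 and 5 without nanoparticle library 1). Those up were Ccr7, from a mean of 2.29 to 112 FPKM, and Irf8, from 8.68 to 21.2 FPKM. Those down were Cd209a (5.69 to 0.0254 FPKM), Clec10a (6.92 to 0.786), Ciita (15.8 to 6.09) and Zbtb46 (3.97 to 2.30). The 11 neutrophil markers summed to 275 to 308 and 241 to 340 FPKM, with 2 of the 5 tested up and 1 down (4 and 1 without nanoparticle library 1). These sums hold opposite changes. Mmp8, most of the vehicle sum, fell from a mean of 245 to 130 FPKM, while S100a8 rose from 34.9 to 83.1 FPKM and Lcn2 from 0.234 to 50.4 FPKM. Sums were at most 1.98 FPKM for T cell, 0.394 for B cell, 4.52 for mast cell and basophil, and 3.38 for stromal and endothelial markers, and of these lists only the mast cell and basophil list had tested genes, 2, of which 1 fell. Markers not listed in the table or at 0 in every library numbered 1 of 6 for B cells and 2 of 7 for mast cells and basophils. The part of these marker shifts in the results that follow was not tested, and in bulk RNA fewer cells of a type and less RNA per cell cannot be told apart.

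With nanoparticles, Slc3a2, Slc7a8 and Slc15a3 rose, at 3.29, 3.26 and 3.33 times their vehicle mean, and Slc43a2 and Slc1a5 fell, to 0.306 and 0.557 times, at an adjusted p under 0.05. Slc7a5, Slc38a2, Slc7a7 and Slc1a4 did not pass. The test was limma's moderated test on log2(FPKM + 1) with Benjamini-Hochberg adjustment over all 10682 genes that reached 1 FPKM in 3 or more libraries; all 9 members did. It called 3 members higher and 2 lower, and 3 higher and 4 lower without nanoparticle library 1. Over all tested genes it called 33.2%, with 17% higher and 16.2% lower, and 64.8% in either direction without nanoparticle library 1. The median log2 change was -0.21 for the 9 members and -0.0010 over all tested genes.

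**Figure D1:**
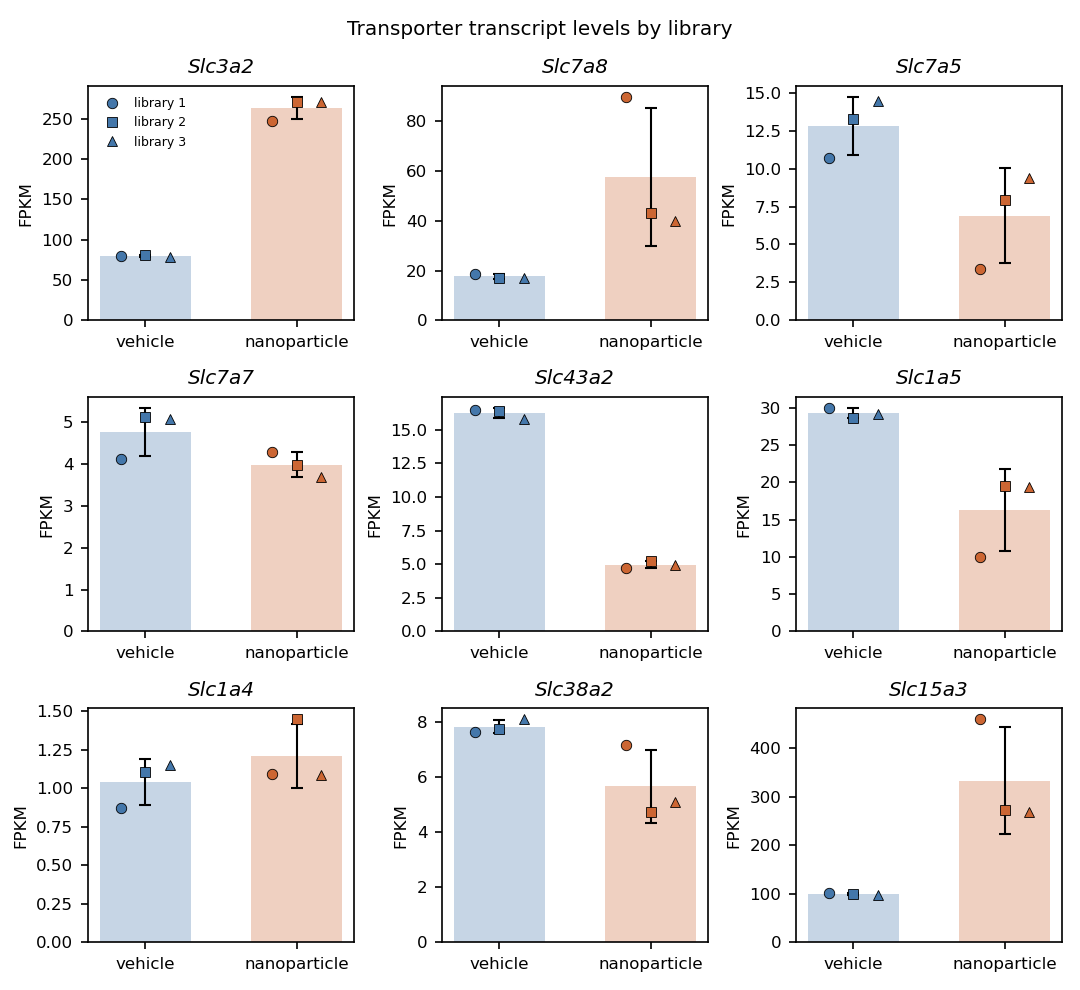
Transcript level in FPKM (vertical axes, from 0) of each of the 9 carriers in vehicle (blue) and nanoparticle (orange) libraries. Points are single libraries, with library 1 as a circle, 2 as a square and 3 as a triangle; bars are group means and error lines 1 SD (n = 3). Slc3a2 and Slc43a2 show tight groups far apart, while in Slc7a8 and Slc15a3 nanoparticle library 1 lies above libraries 2 and 3 and in Slc7a5 and Slc1a5 it lies below them.

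Slc3a2 (ENSMUSG00000010095, chr19:8706882-8723369, minus strand, GENCODE M21 on GRCm38) was at 80.02, 81.5 and 78.3 FPKM in vehicle libraries 1 to 3 and at 247, 271 and 272 FPKM in nanoparticle libraries 1 to 3. The groups were far apart, and the lowest nanoparticle library was 3.03 times the highest vehicle library. Group means were 79.9 ± 1.62 and 263 ± 13.8 FPKM (SD, n = 3 each). The difference on the log2 scale was 1.71, with an SE of 0.11 and a limma adjusted p of 0.000164. This heavy chain gene was the most evenly raised of the 3, since its nanoparticle libraries spanned 1.10-fold, against 1.72-fold for Slc15a3 and 2.24-fold for Slc7a8. Leaving out nanoparticle library 1 gave 1.75.

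Slc7a8 (ENSMUSG00000022180, chr14:54722209-54781946, minus strand) encodes a light chain of Slc3a2 that exchanges small and large neutral amino acids. It was at 18.7, 17.0 and 17.2 FPKM in vehicle and at 89.5, 42.9 and 40.02 FPKM with nanoparticles. Nanoparticle library 1 held 2.16 times the mean of libraries 2 and 3, which themselves lay above every vehicle library. Means were 17.6 ± 0.908 and 57.5 ± 27.8 FPKM (SD, n = 3 each). The difference on the log2 scale was 1.55, with an SE of 0.30 and a limma adjusted p of 0.00977. It was 1.19 without nanoparticle library 1, when the mean of libraries 2 and 3 was 41.4 FPKM.

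Slc7a5 (ENSMUSG00000040010, chr8:121881150-121907694, minus strand) encodes the light chain that exchanges leucine and other large neutral amino acids. Its values were 10.7, 13.3 and 14.4 FPKM in vehicle and 3.37, 7.94 and 9.38 FPKM with nanoparticles. The groups did not overlap, but nanoparticle library 3 was at 0.878 times vehicle library 1, and nanoparticle library 1 held 0.389 times the mean of libraries 2 and 3. The log2 change was -0.89 (SE 0.33), which did not pass (limma adjusted p = 0.0856). Without nanoparticle library 1 the change was smaller, at -0.51, and passed (limma adjusted p = 0.014).

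Slc7a7 (ENSMUSG00000000958, chr14:54369442-54417780, minus strand) encodes the light chain that exchanges cationic for neutral amino acids. It was at 4.12, 5.13 and 5.07 FPKM in vehicle and at 4.29, 3.99 and 3.69 FPKM with nanoparticles. The groups overlapped, as nanoparticle library 1 lay above vehicle library 1. The log2 change of -0.21 did not pass (95% interval -0.48 to 0.07, limma adjusted p = 0.213). Without nanoparticle library 1 it was -0.25 and did not pass either (limma adjusted p = 0.0706). Its exons share 232 bases, 6.998% of their length, with Oxa1l on the other strand, which had a mean of 6.26 FPKM over all libraries. If the counting did not use strand, the reads of the shared bases cannot be told apart.

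The light chains that can join Slc3a2 were set against it within each library. Slc7a5, Slc7a6, Slc7a7, Slc7a8 and Slc7a11 together came to 62.1, 64.3 and 68.0 FPKM in vehicle and to 186, 122 and 114 FPKM with nanoparticles. The ratio of this sum to Slc3a2 was 0.776, 0.789 and 0.869 in vehicle and 0.751, 0.451 and 0.419 with nanoparticles. In FPKM the heavy chain transcript thus exceeded the light chain sum in every library, by the widest margin in nanoparticle libraries 2 and 3. The ratio in nanoparticle library 1 lay just under those of the vehicle libraries. The excess rests on the annotated lengths. In recovered reads Slc7a11 alone had 6978, 7200 and 8099 in vehicle, against 5626, 5703 and 5768 for Slc3a2. With nanoparticles Slc7a11 had 19355, 14876 and 15672 reads, against 14242, 15804 and 18466 for Slc3a2. The nanoparticle mean ratio was 0.666 times the vehicle mean, and 0.536 times without nanoparticle library 1.

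In the light chain sum the shares of Slc7a5, Slc7a6 and Slc7a7 were lower with nanoparticles and those of Slc7a8 and Slc7a11 were higher. These shares were not tested. Slc7a5 made up 17.2%, 20.6% and 21.2% of it in vehicle and 1.81%, 6.50% and 8.23% with nanoparticles. Slc7a8 made up 30.03%, 26.4% and 25.3% and then 48.2%, 35.1% and 35.1%. Slc7a11, the cystine and glutamate exchanger, made up 40.5%, 40.5% and 40.9% and then 45.9%, 52.8% and 51.3%. Slc7a7 made up 6.63%, 7.97% and 7.45% and then 2.31%, 3.27% and 3.24%, and Slc7a6 5.64%, 4.46% and 5.16% and then 1.83%, 2.31% and 2.09%. For each of these shares the groups did not overlap. The levels of Slc7a5, Slc7a6 and Slc7a7 did not pass (limma adjusted p = 0.0856, 0.413 and 0.213), and a share also depends on the other genes of the sum. The FPKM of Slc7a8 was 1.75, 1.28 and 1.19 times that of Slc7a5 in vehicle and 26.6, 5.40 and 4.27 times with nanoparticles. These ratios do not depend on the scaling between libraries.

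**Figure D2:**
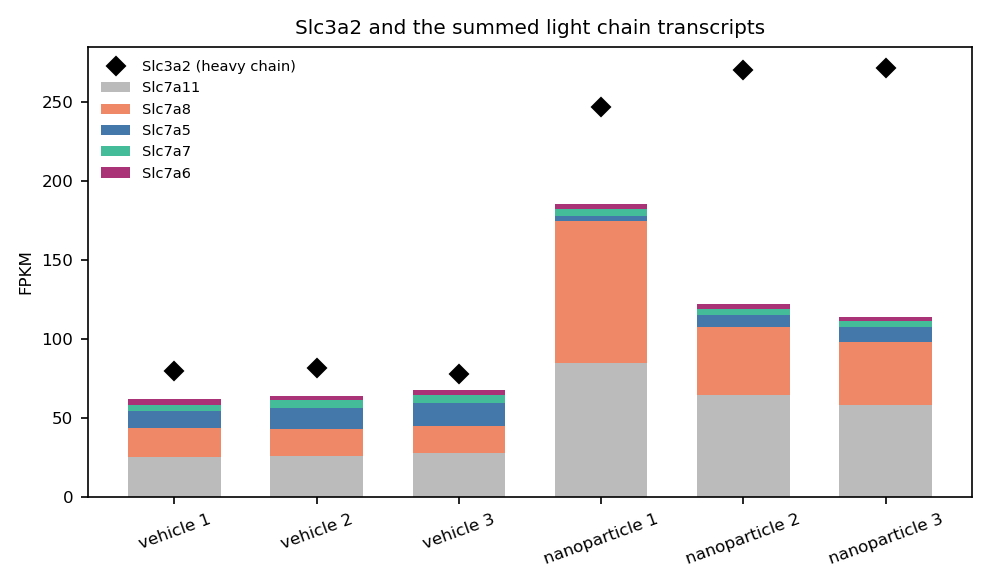
Level in FPKM (vertical axis) of the light chain transcripts, stacked by gene, and of the heavy chain Slc3a2 (black diamonds) in each of the 6 libraries. Slc3a2 lies above the stack in every library; the stack reaches 186, 122 and 114 FPKM in nanoparticle libraries 1 to 3.

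Slc43a2 (ENSMUSG00000038178, chr11:75531694-75577575, plus strand) encodes a carrier that needs no heavy chain and lets leucine, phenylalanine and methionine through by facilitated diffusion. It was at 16.5, 16.4 and 15.8 FPKM in vehicle and at 4.73, 5.22 and 4.93 FPKM with nanoparticles. All 3 nanoparticle libraries were low and close together, at no more than 0.330 times the lowest vehicle library. Means were 16.2 ± 0.371 and 4.96 ± 0.244 FPKM (SD, n = 3 each). The difference on the log2 scale was -1.53, with an SE of 0.09 and a limma adjusted p of 0.000122. The value without nanoparticle library 1 was -1.50. The antisense gene Gm45606 shares 922 bases, 9.18% of the exon length of Slc43a2, and fell too, from a mean of 1.55 to 0.423 FPKM (limma adjusted p = 0.0108). Whether the counting used strand is not given in the sources used here, and without strand the reads of the shared bases cannot be told apart.

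Slc1a5 (ENSMUSG00000001918, chr7:16781340-16798274, plus strand) encodes the sodium-dependent exchanger through which cells take up glutamine. It was at 29.9, 28.7 and 29.2 FPKM in vehicle and at 9.95, 19.5 and 19.4 FPKM with nanoparticles. Each nanoparticle library was under each vehicle library, and library 1 was the lowest, at 0.511 times the mean of the other two. Means were 29.2 ± 0.637 and 16.3 ± 5.50 FPKM (SD, n = 3 each). The difference on the log2 scale was -0.86, with an SE of 0.25 and a limma adjusted p of 0.0426. With nanoparticle library 1 left out, the change was -0.56 (limma adjusted p = 0.000166). The call was lost without any 1 of vehicle libraries 1 to 3 (limma adjusted p = 0.127, 0.118 and 0.121) or without nanoparticle library 2 (0.0514). It was also lost with no filter on low values (limma adjusted p = 0.0908) and with the replicate number as a block (0.0554).

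Slc1a4 (ENSMUSG00000020142, chr11:20302180-20332713, minus strand), which encodes a related exchanger of alanine, serine and cysteine, was the lowest member. It was at 0.869, 1.10 and 1.15 FPKM in vehicle and at 1.09, 1.45 and 1.08 FPKM with nanoparticles, and the groups overlapped. Its log2 change of 0.11 did not pass (95% interval -0.17 to 0.39, limma adjusted p = 0.507), and it was -0.07 with libraries scaled by read totals. Without nanoparticle library 1 the change was 0.15 (limma adjusted p = 0.305). The level of Slc1a5 was 34.4, 25.9 and 25.4 times that of Slc1a4 in vehicle and 9.11, 13.5 and 17.9 times with nanoparticles, so the pair drew closer while Slc1a5 stayed the more abundant in all 6 libraries.

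Slc38a2 (ENSMUSG00000022462, chr15:96687392-96699730, minus strand) encodes a sodium-coupled carrier of alanine, glutamine and other small neutral amino acids, known to be induced when amino acids run short. It was at 7.62, 7.75 and 8.10 FPKM in vehicle and at 7.16, 4.73 and 5.08 FPKM with nanoparticles. The groups did not overlap, but nanoparticle library 1 was at 0.939 times the lowest vehicle library. The log2 change of -0.42 (SE 0.15) did not pass (limma adjusted p = 0.0754). Without nanoparticle library 1 the change was -0.58 and passed (limma adjusted p = 0.00045).

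Slc15a3 (ENSMUSG00000024737, chr19:10839727-10859362, plus strand) was the most abundant of the 9 carriers in vehicle, and by mean with nanoparticles. It was at 102, 100.3 and 98.5 FPKM in vehicle and at 460, 273 and 268 FPKM in the nanoparticle libraries 1 to 3. Every nanoparticle library was at least 2.62 times the highest vehicle library. Means were 100.4 ± 1.98 and 334 ± 109.6 FPKM (SD, n = 3 each). The difference on the log2 scale was 1.68, with an SE of 0.23 and a limma adjusted p of 0.00244. It was 1.42 with nanoparticle library 1 left out. The annotated exons of Slc15a3 share 1541 bases, 28.1% of their length, with the gene Tmem132a on the other strand, which was at 13.3 ± 0.632 and 16.2 ± 0.264 FPKM (log2 change 0.27, limma adjusted p = 0.0618), and without strand the reads of that stretch cannot be told apart.

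In vehicle the 9 levels followed the order Slc15a3, Slc3a2, Slc1a5, Slc7a8, Slc43a2, Slc7a5, Slc38a2, Slc7a7 and Slc1a4, and no neighbours in it overlapped. With nanoparticles the order of means was Slc15a3, Slc3a2, Slc7a8, Slc1a5, Slc7a5, Slc38a2, Slc43a2, Slc7a7 and Slc1a4. There Slc15a3 and Slc3a2 overlapped, as did Slc7a5, Slc38a2 and Slc43a2 among themselves, and Slc7a5 with Slc7a7. Over the members, 7 of 9 had groups that did not overlap, beside 52.1% of all tested genes.

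**Figure D3:**
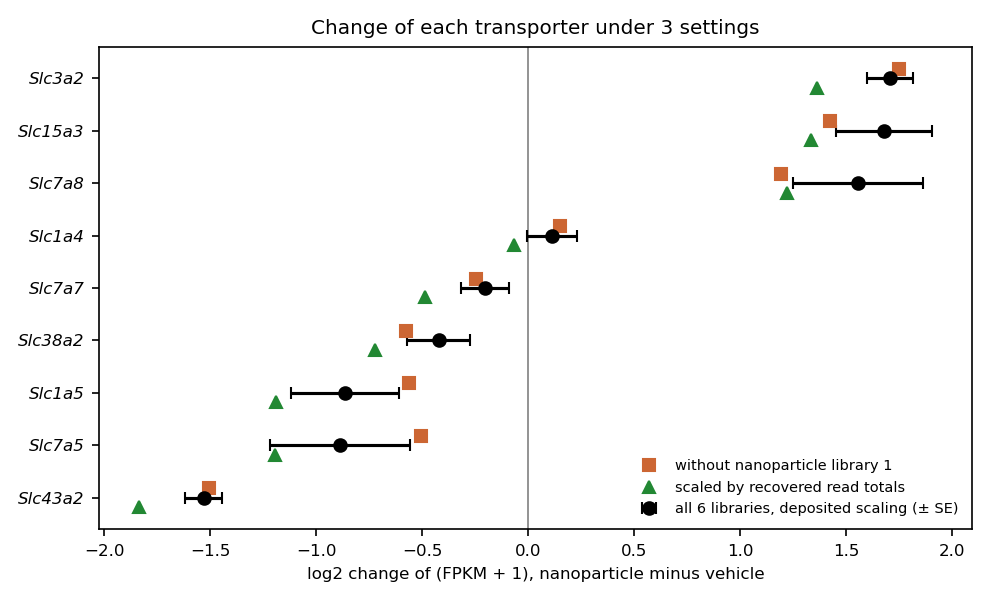
Log2 change of (FPKM + 1), nanoparticle minus vehicle (horizontal axis), for each carrier with all libraries (black, bars are 1 SE), without nanoparticle library 1 (orange squares) and with libraries scaled by recovered read totals (green triangles). Slc3a2, Slc15a3 and Slc7a8 stay right of 0 and Slc43a2, Slc7a5, Slc1a5, Slc38a2 and Slc7a7 stay left of it in all 3 settings, while Slc1a4 changes side.

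Directions are relative to the scaling of the deposited values. When each library was scaled by its recovered reads instead, all tested genes had a median log2 change of -0.28, and the members at 1.36 (Slc3a2), 1.33 (Slc15a3) and 1.22 (Slc7a8) stayed past the threshold, as did Slc43a2 at -1.84 and Slc1a5 at -1.19. On that scale Slc7a5 (-1.20), Slc38a2 (-0.72) and Slc7a7 (-0.49) also passed as lower, which made 5 members lower, where 3613 of all tested genes were lower and 1108 higher.

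The profiles most like those of the 2 carriers that led by level were sought among 6665 tested genes with at least 5 FPKM in one group, by the root mean square difference of log2(FPKM + 1) over the 6 libraries after each gene's mean was removed. Closest to Slc3a2 were Gm6548 (difference 0.075), Bcl3 (0.081) and Mmp14 (0.085). Bcl3, the gene of an inhibitor-kappaB family protein, was at 4.64, 4.75 and 5.21 FPKM in vehicle and at 16.6, 20.7 and 19.7 FPKM with nanoparticles. Closest to Slc15a3 were mt-Rnr1 (0.052), a mitochondrial ribosomal RNA, then 4930430E12Rik (0.069) and Slc31a2 (0.071). Slc31a2, a gene of the copper transporter family, was at 33.4, 32.8 and 30.7 FPKM in vehicle and at 152, 94.1 and 99.5 FPKM with nanoparticles. Like Slc15a3 it was highest in nanoparticle library 1, which follows from its choice by likeness over these libraries.

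The lists of related genes that follow are read against the shares of all tested genes: 17% were called higher and 16.2% lower with all libraries, and 64.8% were called in either direction without nanoparticle library 1. Other carriers of the plasma membrane went both ways. Of 25 listed symbols, 22 were in the table and 10 were tested. Of these 10, 4 rose, 2 fell and 4 did not pass, with a median log2 change of 0.60 beside -0.0010 for all tested genes (0.24 without nanoparticle library 1, with 5 up and 3 down). Scaled by read totals, 4 were up and 3 down, with a median of 0.31. Slc7a2, a carrier of arginine and other cationic amino acids, was at 22.7, 26.3 and 26.6 FPKM in vehicle and at 544, 251.1 and 213 FPKM with nanoparticles (log2 change 3.56, limma adjusted p = 0.000731, and 3.15 without nanoparticle library 1). Slc7a11 was at 26.4 ± 1.37 and 69.4 ± 14.0 FPKM (SD, n = 3 each), a limma adjusted p of 0.00142 for a log2 difference of 1.35. Slc1a2, a glutamate carrier, had 2, 2 and 1 recovered reads in vehicle, at or under a floor of 3 reads per library, and 1689, 945 and 838 reads with nanoparticles, so its mean FPKM was at least 458-fold higher.

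Slc16a10, which carries aromatic amino acids, rose from 1.96 ± 0.0511 to 7.07 ± 0.824 FPKM, means with SD for n = 3, or 1.44 on the log2 scale. The fallers were the taurine carrier Slc6a6, at 64.8 ± 1.61 and 33.7 ± 5.62 FPKM, and Slc38a1, a close relative of Slc38a2, at 8.34 ± 0.146 and 4.06 ± 0.979 FPKM (SD, n = 3 each). Within the family of Slc3a2 and its light chains, 7 of 10 symbols were listed and 6 tested. Of these, 3 rose (Slc3a2, Slc7a8 and Slc7a11) and 3 did not pass, and the median was 0.59. There were 3 up and 1 down without nanoparticle library 1, and with read-total scaling the other 3 were lower. Slc7a6 and Slc7a11 are in both lists. Slc7a6, a light chain close to Slc7a7, did not pass (3.29 ± 0.368 and 2.86 ± 0.505 FPKM, log2 change -0.16, limma adjusted p = 0.413).

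Other lysosomal and vesicular carriers also went both ways. Of 23 symbols 21 were listed and 13 tested; 2 rose and 3 fell, with a median of -0.31, and without nanoparticle library 1 there were 2 up and 8 down. With read-total scaling 1 was up and 8 were down, with a median of -0.54. Slc15a4, the lysosomal relative of Slc15a3, was at 7.16, 6.08 and 6.61 FPKM in vehicle and at 5.55, 6.19 and 7.11 FPKM with nanoparticles and did not pass (log2 change -0.07, limma adjusted p = 0.7). Slc15a3 was 14.3, 16.5 and 14.9 times as high as Slc15a4 in vehicle and 83.0, 44.1 and 37.7 times with nanoparticles. The proton-coupled carrier Slc36a1 fell from 15.0 ± 1.06 to 8.11 ± 1.87 FPKM, the sialic acid carrier Slc17a5 from 8.43 ± 0.326 to 5.06 ± 0.295 FPKM and Mfsd12 from 63.4 ± 1.67 to 44.6 ± 4.91 FPKM, while Mfsd1 rose from 53.4 ± 2.10 to 86.1 ± 4.94 FPKM and Slc38a7 from 10.1 ± 0.0526 to 16.4 ± 4.35 FPKM (SD, n = 3 each). The call of Slc38a7 was lost with read-total scaling (limma adjusted p = 0.242).

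Carriers of the mitochondrial inner membrane had 10 tested genes of 14, with 1 up, 4 down and a median of -0.26 (1 up and 5 down without nanoparticle library 1). Scaling by read totals gave 1 up and 5 down, with a median of -0.58. Slc25a22, a glutamate carrier, rose from 6.07 ± 1.04 to 12.4 ± 1.42 FPKM, and Slc25a13, an aspartate and glutamate carrier, fell from 10.6 ± 0.387 to 6.41 ± 1.32 FPKM (SD, n = 3 each). Sfxn3 fell from 22.1 ± 1.06 to 12.9 ± 0.439 FPKM.

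Of the 34 tested genes through which mTORC1 senses amino acids, 2 rose, 4 fell and 28 did not pass, with a median of -0.04, where 33.2% of all tested genes were called. Without nanoparticle library 1 there were 11 up and 13 down. Those that fell included the leucine sensor gene Sesn2, at 13.5 ± 0.679 and 6.81 ± 0.171 FPKM, its relative Sesn1, at 5.42 ± 0.911 and 1.34 ± 0.160 FPKM, and Bmt2, the gene of a sensor of S-adenosylmethionine, at 28.4 ± 1.25 and 9.53 ± 2.29 FPKM (SD, n = 3 each). The remaining one was Deptor, at 2.90 ± 0.0780 and 0.718 ± 0.128 FPKM. Akt1s1, which encodes an inhibitory subunit of mTORC1, rose from 10.2 ± 1.15 to 16.5 ± 1.77 FPKM, and Wdr24 rose from 4.48 ± 0.237 to 5.71 ± 0.185 FPKM. With read-total scaling 8 were lower and neither of the higher calls held.

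Genes of the response to amino acid shortage, a response that the factor ATF4 controls and to which Slc3a2, Slc7a5 and Slc38a2 are known to belong, had 9 of 19 tested up and 4 down, with a median of 0.52 (10 up and 5 down without nanoparticle library 1). On the read-total scale 7 were up and 4 down, with a median of 0.28. The phosphatase subunit gene Ppp1r15a rose from 10.03 ± 0.833 to 47.0 ± 11.8 FPKM, Ddit3 from 6.86 ± 0.571 to 26.0 ± 15.0 FPKM and Nupr1 from 0.656 ± 0.0150 to 5.70 ± 3.23 FPKM (SD, n = 3 each). These rises were largest in nanoparticle library 1. In nanoparticle libraries 1 to 3 Ddit3 was at 43.3, 16.7 and 18.1 FPKM and Nupr1 at 9.43, 3.89 and 3.78 FPKM. Sesn2, the proline synthesis gene Aldh18a1 (6.29 ± 0.679 and 3.09 ± 0.708 FPKM) and the serine pathway gene Shmt2 (9.36 ± 0.786 and 5.56 ± 0.890 FPKM) fell. Slc3a2, Slc7a5 and Slc38a2 are not among the 19 genes counted. Of these members Slc3a2 rose, while Slc7a5 (log2 change -0.89) and Slc38a2 (-0.42) did not pass. Without nanoparticle library 1, and on the read-total scale, Slc7a5 and Slc38a2 passed as lower.

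Cytosolic aminoacyl-tRNA synthetases, the enzymes that load tRNAs, had 4 of 20 tested up and 2 down, with a median of -0.0036, so the share called was near the 33.2% of all tested genes. Without nanoparticle library 1 there were 8 up and 6 down. With read-total scaling 2 were up and 10 down. Wars, which loads tryptophan, rose from 11.6 ± 0.636 to 22.2 ± 4.33 FPKM, Rars, for arginine, from 21.1 ± 0.750 to 34.7 ± 2.84 FPKM, and Cars, for cysteine, from 4.603 ± 0.466 to 7.26 ± 1.48 FPKM. The call of Cars was lost with read-total scaling (limma adjusted p = 0.244). Iars, for isoleucine, fell from 13.3 ± 0.571 to 6.82 ± 0.692 FPKM and Vars, for valine, from 11.4 ± 0.271 to 6.18 ± 1.27 FPKM (SD, n = 3 each).

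A list of innate sensors and their partners holds genes that sense bacterial wall peptides (Nod1, Nod2 and Ripk2) and genes of nucleic acid sensing in endosomes, such as Tlr7, Tlr8 and Tlr9. It had 4 of 10 tested up and 2 down, with a median of 0.31 (6 up and 2 down without nanoparticle library 1). The genes that rose were Nod1, Nod2, Ripk2 and Tlr7, and those that fell were Tlr8 and Tlr9. Nod1, a sensor of wall peptides, was at 2.34, 2.37 and 2.53 FPKM in vehicle and at 15.7, 6.15 and 5.72 FPKM with nanoparticles. Its signaling kinase Ripk2 was at 18.3, 18.3 and 17.6 FPKM and then at 79.8, 32.96 and 34.7 FPKM, and both were highest in nanoparticle library 1. Tlr7 rose from 14.3 ± 0.653 to 24.9 ± 7.99 FPKM and Tlr8 fell from 11.6 ± 0.404 to 4.67 ± 1.63 FPKM (SD, n = 3 each). With read-total scaling this list had 2 up and 4 down, and the calls of Ripk2 and Tlr7 were lost (limma adjusted p = 0.0659 and 0.204).

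Enzymes that consume amino acids had 5 of 12 tested up and 2 down, with a median of 0.26; without nanoparticle library 1 there were 6 up and 2 down, and with read-total scaling 3 up and 3 down. Arg2, an arginase, rose from 0.496 ± 0.0626 to 10.6 ± 2.96 FPKM, and Ass1, which remakes arginine from citrulline, from 261 ± 8.12 to 681 ± 294 FPKM, a call lost with read-total scaling (limma adjusted p = 0.0739). The nitric oxide synthase gene Nos2 rose from 0.101 ± 0.0319 to 202 ± 284 FPKM, a spread set by nanoparticle library 1 at 530 FPKM, with libraries 2 and 3 at 45.0 and 30.1 FPKM (log2 change 6.37, and 5.10 without library 1). Got2, a mitochondrial aspartate aminotransferase, fell from 15.9 ± 0.737 to 12.1 ± 1.16 FPKM (means ± SD, n = 3 in each group).

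**Figure D4:**
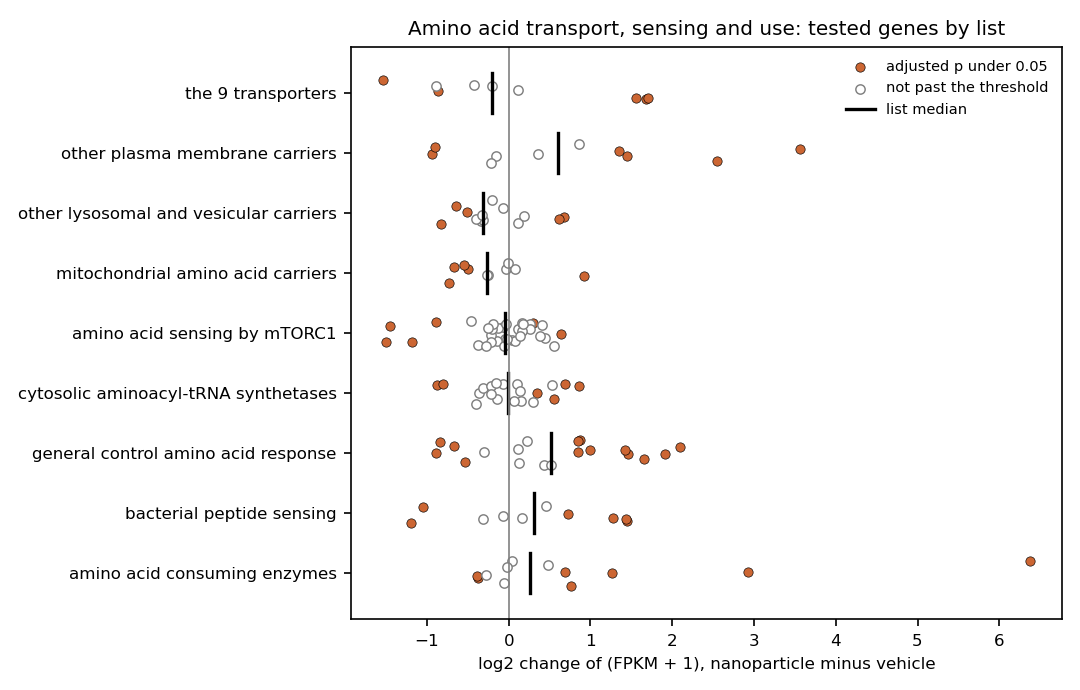
Change in log2 of (FPKM + 1), nanoparticle minus vehicle (horizontal axis), of each tested gene (points) in the 9 carriers and in 8 lists of amino acid transport, sensing and use (rows). Filled points passed an adjusted p of 0.05, open points did not, and black lines are list medians, which run from -0.31 for the other lysosomal and vesicular carriers to 0.60 for the other plasma membrane carriers.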

How the data were processed

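RNA-seq libraries were prepared with a NEBNext Ultra II kit from 1 µg of RNA, 3 per group, per the labels' protocols. The authors deposited 2 tables with the same 140388 values for 23398 genes. No header or label names the unit. The deposited values were read as FPKM, because 95.8% to 96.1% of those above 0 became whole reads (within 0.01) when multiplied by the GENCODE M21 exon length and 1 step per library. All 9 members did so. For 515 other genes, the smallest length that gives whole reads was found and used in the read totals. These genes did not become whole and had at least 1000 reads over all libraries together, or had no annotated length and values above a small minimum. Over 13988 genes the steps match size factors from the median of ratios, a scaling that removes any change common to most genes; this was worked out from the values. The submitters' processing notes name CASAVA, STAR 2.5, HTSeq, edgeR 3.16.5 and DESeq2, with the builds mm10 and hg19 and no role for either. Strand and counting options are not given in the sources used here.

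From these FPKM, the 10682 genes that reached 1 FPKM in 3 or more libraries were kept, 1 was added, log2 was taken and limma 3.58.1 in R 4.3.3 was fitted with group as the single term and a mean-variance trend. Adding 1 understates the change of low genes. P-values were adjusted by the Benjamini-Hochberg method over all genes tested, with a threshold of 0.05. Recovered reads give counting error only. Replicates differed beyond sampling noise (chi-square per degree of freedom of at least 2.87), so none was merged. Intervals are 95% intervals of the moderated fit. The fit was also run on simulated reads with the same spread between libraries for every gene and no library set apart. That run therefore does not cover a library such as nanoparticle library 1.

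The 9 members and the 9 pathway and 7 marker lists were chosen with earlier results of these data known. All members are named, and of each pathway list up to 3 genes with the largest rise and up to 3 with the largest fall past the threshold and with at least 5 FPKM in the higher group. For Slc3a2 and Slc15a3 the 3 genes with the most alike profile are named, and Slc7a2 and Slc7a11 once. A gene that the rule would name is not reported here. Other genes were named after their values were seen: Slc7a6, Slc15a4, Nod2, Tlr9, Deptor, Oxa1l, Gm45606 and Tmem132a. So were the markers Itgax, Cd74, Flt3, Ccr7, Irf8, Cd209a, Clec10a, Ciita, Zbtb46, Mmp8, S100a8 and Lcn2. Alternatives covered the pseudocount, filters, scalings, trend, block, limma-voom and each library left out; scaling by read totals was added after seeing the data. Python 3.11.15, numpy 2.4.6, pandas 2.3.3, scipy 1.17.1 and matplotlib 3.10.9 were used.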

Additional observations from a re-analysis of the deposited data

How the results depend on the processing

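All genes past the threshold numbered 3550, with 1817 higher and 1733 lower, and 5 members passed, 3 higher and 2 lower. With 1 library left out at a time, these counts ran from 2141 to 6923, from 1114 to 3660 and from 1027 to 3263, and for the members from 4 to 7, with 3 higher in each fit and 1 to 4 lower. The lowest counts came without a vehicle library and the highest without nanoparticle library 1. A minimum of 5 FPKM gave 975 lower genes and left 7 members tested, and with no filter 1 member was lower. With libraries rescaled to the same sum of FPKM, the median of all genes was -0.38, 881 genes were higher and 4306 lower, and 8 members passed, 5 of them lower. Scaling by read totals gave 1108 higher and 3613 lower genes and likewise 8 members, 5 lower. On these scales Slc1a4 turned to -0.14 and -0.070. The cause was not tested, but both scalings by construction shift all genes of a library together. Slc3a2, Slc7a8, Slc15a3 and Slc43a2 passed in the same direction in every setting run. The replicate number as a block gave 2785 genes and 5 members, with Slc7a5 past the threshold (limma adjusted p = 0.036) and Slc1a5 not (0.0554). No label says what the number marks. Deviations of same-numbered libraries from their group means correlated at 0.065, 0.11 and -0.058. With 3 libraries a group and 1 apart, these values cannot decide whether the libraries were paired. The light to heavy chain ratio of nanoparticle over vehicle, 0.666, ran from 0.536 to 0.741 with 1 library left out. Limits: there were 3 libraries a group, 1 of which stood apart. Among the members, counting error was largest for Slc1a4 (68 to 94 reads).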
